A study of Arabidopsis thaliana with 8 samples.

Results

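Transcripts of 7 auxin genes were followed across light and lincomycin in dark-grown Arabidopsis thaliana seedlings: YUC2, YUC4 and YUC6 of auxin synthesis, and GH3.1, GH3.3, WES1 (also called GH3.5) and GH3.17 of auxin conjugation. Members were chosen from these 2 gene families with earlier results of these data known, 1 probe set each. They make up 7 of the 22746 probe sets tested. The annotation supplied with the series gave 4 of the 11 YUC genes and 5 of the 8 auxin-conjugating GH3 genes that were looked for. YUC11 and GH3.9 are the remaining 2 of these and are described after the members.

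RNA came from whole seedlings of the Col-0 ecotype, genotype wild type, 4 days old and grown in the dark on sucrose-containing Murashige Skoog medium. The red lincomycin group and the red group were collected after 30 min of red light, with and without lincomycin in the medium. The dark lincomycin group and the dark group were collected before that light treatment, again with and without lincomycin. Each group had 2 arrays, and the labels do not say whether these were separate cultures, so that p-values cover the spread between arrays and no more, and that spread may be technical. The lincomycin dose is 220 µg/ml by the protocol and 200 µg/ml by the sample labels. No group carried a mutation or a transgene, and all 4 shared the ecotype, the age and the growth in darkness. In RNA of whole seedlings, fewer cells of a type and less RNA per cell cannot be told apart.

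Auxin, mainly indole-3-acetic acid, drives cell elongation in seedlings grown in the dark. YUC proteins are flavin-containing monooxygenases that turn indole-3-pyruvic acid into indole-3-acetic acid, the last step of the main synthesis route. GH3 proteins join auxin to amino acids, which removes it from the active pool, and several GH3 genes are themselves switched on by auxin. Red light is sensed by phytochromes, which remove the phytochrome-interacting transcription factors that keep dark-grown seedlings elongating. Lincomycin blocks protein synthesis in plastids and thereby alters signals from plastids to the nucleus.

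The values are intensities on a linear scale after RMA, an array summary that corrects background and normalizes between arrays, and the number of arrays limits their precision. The arrays had median intensities between 32.0 and 36.1. Replicates spread more without lincomycin: over all probe sets, log2 differences between replicates had a standard deviation of 0.224 for red lincomycin, 0.211 for dark lincomycin, 0.442 for red and 0.538 for dark. On replicate 1 of the dark group, 1 of the pairs of actin control probe sets had a 3' to 5' ratio, a measure of RNA degradation, of 41.2, against 2.24 to 3.67 on the other 7 arrays. A second actin pair gave 18.7 on that array and at most 6.90 on the others. Of 20 organ markers looked for, 2 had a named probe set, both expansins of root hair cells. The summed intensity of these, EXPA7 and EXPA18, spanned 62.0 to 82.4 for red lincomycin, 81.5 to 109 for dark lincomycin, 87.2 to 113 for red and 48.6 to 60.1 for dark. The other 18 markers were not analysed here.

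GH3.3 was the 1 member of 7 with all red-light arrays on one side of all dark arrays, in the lower direction, as 1.44% of all probe sets were. It was lower after red light on both media, by -0.66 ± 0.14 (log2, SE of the limma fit) on average, but the change did not pass the test over all probe sets (adjusted p = 0.212). The 3 YUC genes, GH3.1, WES1 and GH3.17 had no change with an unadjusted p under 0.05 in any of the 7 comparisons made. Of all probe sets, 3.85% to 18.1% had such a p in each comparison. Members called at an adjusted p under 0.05 numbered 0 of 7 in each comparison of the limma fit, against 0% to 0.98% of all probe sets.

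**Figure D1:**
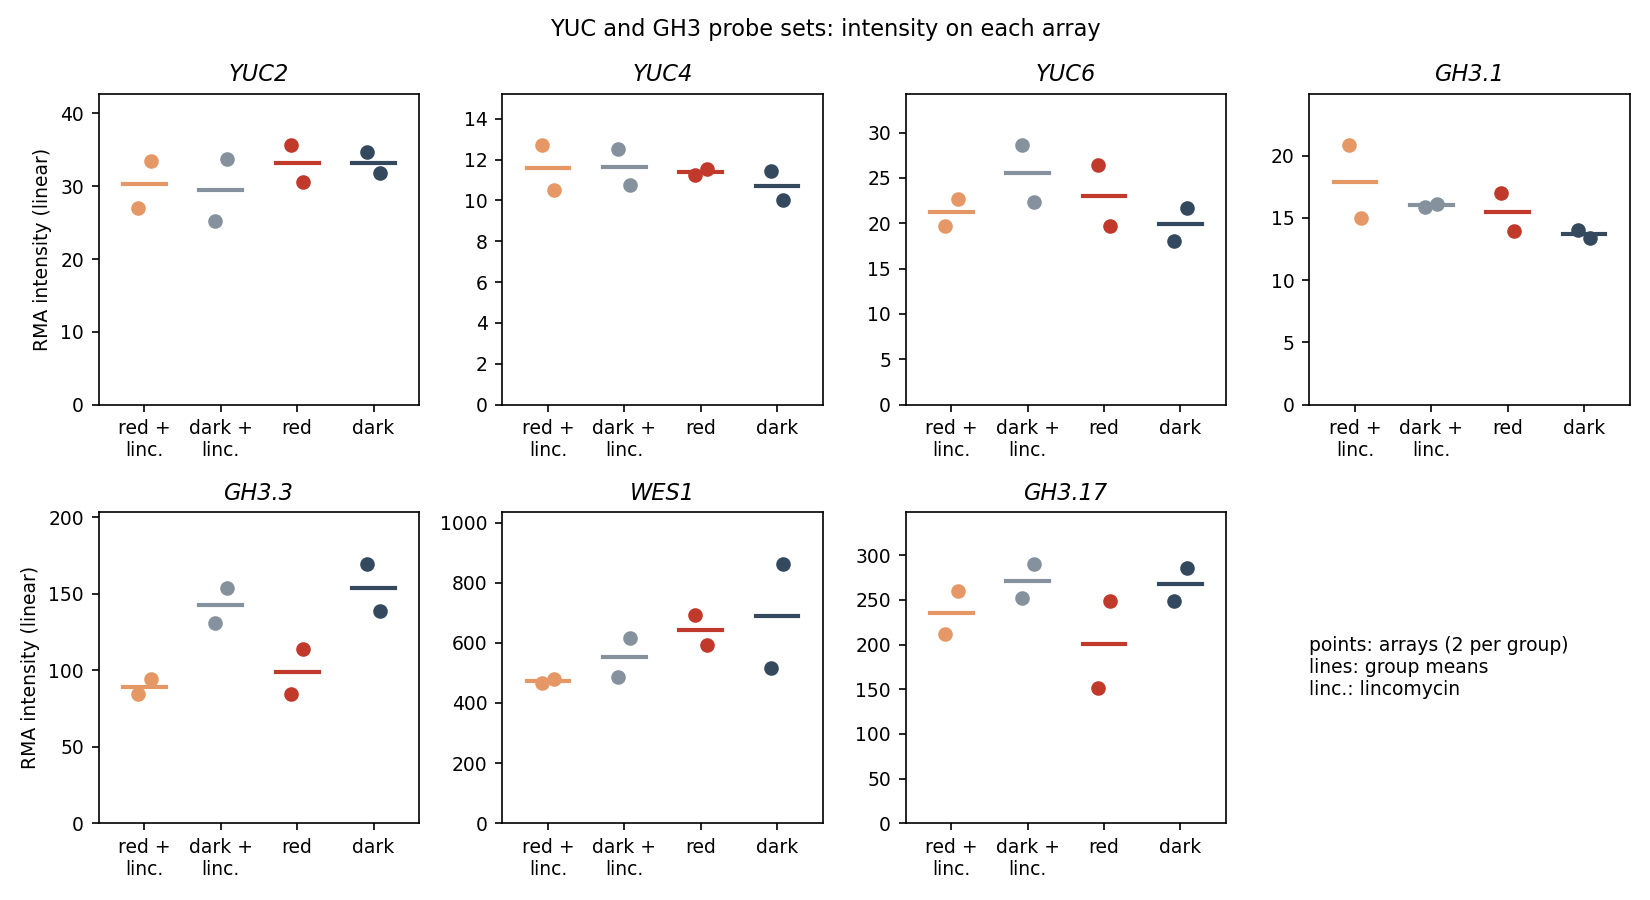
RMA intensity (linear, axes from 0) of the 7 members on each of the 8 arrays, with points for the 2 arrays of a group and a line for their mean. GH3.3 sits between 84.3 and 114 on the 4 red-light arrays and between 131 and 169 on the 4 dark arrays, while the groups of YUC2 and YUC4 overlap throughout.

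Among the synthesis genes, YUC2 had 27.0 and 33.5 on the red lincomycin arrays, 25.2 and 33.7 on the dark lincomycin arrays, 35.6 and 30.6 on the red arrays and 34.7 and 31.8 on the dark arrays. Its highest array was 1.41 times its lowest. In order of their log2 means the groups ran dark, red, red lincomycin and dark lincomycin, and no neighbours in that order were separated beyond their arrays.

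YUC4 was the dimmest member, with 12.7 and 10.5 in the red lincomycin group, 12.5 and 10.8 on the dark lincomycin arrays, 11.2 and 11.5 on the red arrays and 11.4 and 10.03 on the dark arrays. The gene encodes a YUC enzyme known from young leaf and flower primordia. Its mean lay among the dimmest 30% of probe sets, and its arrays overlapped between all neighbouring groups.

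YUC6 had 19.7 and 22.7 on the red lincomycin arrays, 28.6 and 22.4 on the dark lincomycin arrays, 26.4 and 19.7 on the red arrays and 18.1 and 21.7 on the dark arrays. The dark lincomycin group was the highest and the dark group the lowest. The arrays of these 2 groups did not overlap, as for 23.1% of all probe sets in this direction. Neighbouring groups in the order of the means overlapped.

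Of the conjugation genes, GH3.1, an auxin-inducible member of the family, had 20.8 and 15.0 on the red lincomycin arrays, 15.9 and 16.1 on the dark lincomycin arrays, 17.0 and 13.9 on the red arrays and 14.1 and 13.4 on the dark arrays. The 2 replicates of the red lincomycin group differed 1.39-fold, more than the group means, whose span was 0.36 in log2. Groups next to each other in order overlapped, from red lincomycin over dark lincomycin and red to dark.

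GH3.3, which conjugates indole-3-acetic acid and responds to auxin, had 84.3 and 94.2 on the red lincomycin arrays, 131 and 154 on the dark lincomycin arrays, 84.3 and 114 on the red arrays and 169 and 138 on the dark arrays. Its order was dark, dark lincomycin, red and red lincomycin. The step from dark lincomycin to red, 0.54 in log2, was the 1 place in that order where neighbouring groups did not overlap. How many of all probe sets separated these 2 groups was not counted. All arrays of both dark groups lay above all arrays of both red-light groups, as for 1.44% of all probe sets, and the light difference was not called.

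WES1 encodes GH3.5, an enzyme that acts on indole-3-acetic acid and also on benzoate-type acids such as salicylic acid. It had 466 and 479 on the red lincomycin arrays, 487 and 616 on the dark lincomycin arrays, 693 and 593 on the red arrays and 516 and 863 on the dark arrays. The dark replicates differed 1.67-fold, the widest gap between replicates of any member. Replicate 1, the array with the high actin ratio, was the lower one. In order of the means the groups ran dark, red, dark lincomycin and red lincomycin. Of these neighbours only the dark lincomycin and red lincomycin groups did not overlap, with a difference of 0.21 in log2. These 2 groups were separated in this direction for 22.9% of all probe sets.

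GH3.17 encodes an enzyme that joins indole-3-acetic acid to glutamate. It had 212 and 260.1 on the red lincomycin arrays, 252 and 290.5 on the dark lincomycin arrays, 151 and 249 on the red arrays and 248 and 286 on the dark arrays. The red replicates differed 1.65-fold, replicate 1 being the lowest of the 8 arrays. All neighbouring groups overlapped, in the order dark lincomycin, dark, red lincomycin and red.

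The first question was what 30 min of red light did to these genes. Without lincomycin, GH3.3 stood at -0.65 ± 0.20 (log2, SE, n = 2 arrays in each group), 1.57-fold lower in the red group than in the dark group. The unadjusted p of the limma test was 0.0130 and the adjusted p 0.213. Both red arrays lay below both dark arrays, as they did for 18.2% of all probe sets. GH3.17 was at -0.46 ± 0.25 (adjusted p = 0.469 in limma), with overlapping arrays. That value rested on the red replicates: it was -0.82 without replicate 2 of the red group (unadjusted p = 0.00710, adjusted p = 0.133 in limma) and -0.10 without replicate 1. The remaining 5 members lay between -0.06 for WES1 and 0.20 for YUC6, with adjusted p of 0.719 or above. In this comparison 0 of 7 members were called, against 0.189% of all probe sets, and the median change of the members was -0.01, against -0.003 for all probe sets.

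GH3.3 on lincomycin was at -0.67 ± 0.20, 1.59-fold lower in the red lincomycin group than in the dark lincomycin group. The unadjusted p was 0.0110 and the adjusted p 0.991 in limma, with the spread of each gene pooled over all groups. Fitted to the arrays of this comparison alone, the change had an SE of 0.13 and an adjusted p of 0.0863 in limma. The corresponding fit without lincomycin gave an SE of 0.25 and an adjusted p of 0.730. Both red-light arrays of GH3.3 and of WES1 (-0.21 ± 0.25) lay below both dark ones, which held for 22.9% of all probe sets. YUC6 was at -0.26 ± 0.21 and GH3.17 at -0.21 ± 0.25, and YUC2, YUC4 and GH3.1 lay between -0.01 and 0.14. Again 0 of 7 members were called, against 0.0615% of all probe sets. The members' median was -0.21 and that of all probe sets -0.002.

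Averaged over both media, GH3.3 was at -0.66 with a 95% interval from -0.99 to -0.33, a ratio of red light to darkness of 0.634 (0.505 to 0.795). All 4 red-light arrays lay below all 4 dark arrays. By unadjusted p (0.00200) it was placed 214 of 22746, while the largest unadjusted p among called probe sets was 0.000146, so that the adjusted p of 0.212 in limma did not pass. In this comparison 68 probe sets (0.299%) were called, 54 higher and 14 lower, and 0 of 7 members. The smallest called change was 0.64 in log2, a size that GH3.3 reached with a spread between replicates near the middle of all probe sets (56.0% had a smaller one).

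The other members' intervals, YUC4 and GH3.1 apart, bound how far red light can have moved their measured intensity on average over both media. The ratio of red light to darkness lay between 0.809 and 1.27 for YUC2, 0.854 and 1.24 for YUC4 and 0.772 and 1.25 for YUC6. For GH3.1 it lay between 0.892 and 1.39, for WES1 between 0.679 and 1.22 and for GH3.17 between 0.595 and 1.06. A decrease of the size fitted for GH3.3 lies outside the intervals of YUC2, YUC6 and GH3.1 in this fit, and inside that of GH3.17. The interval of YUC4 cannot bound a decrease, because its log2 mean, 3.499, lay below the 20th percentile of all values, 3.505. GH3.1, with a log2 mean of 3.97, was dim as well. A decrease of the size fitted for GH3.3 would take it below that percentile, so its interval cannot bound such a decrease either. For WES1 the bound depended on single arrays, since its averaged change was -0.32 ± 0.13 without replicate 1 of the dark group, -0.38 ± 0.12 without replicates 1 of the dark and red groups, and 0.05 ± 0.13 without replicate 2 of the dark group, against -0.14 ± 0.18 with all arrays. These intervals are of single genes, and the differences between genes were not tested.

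**Figure D2:**
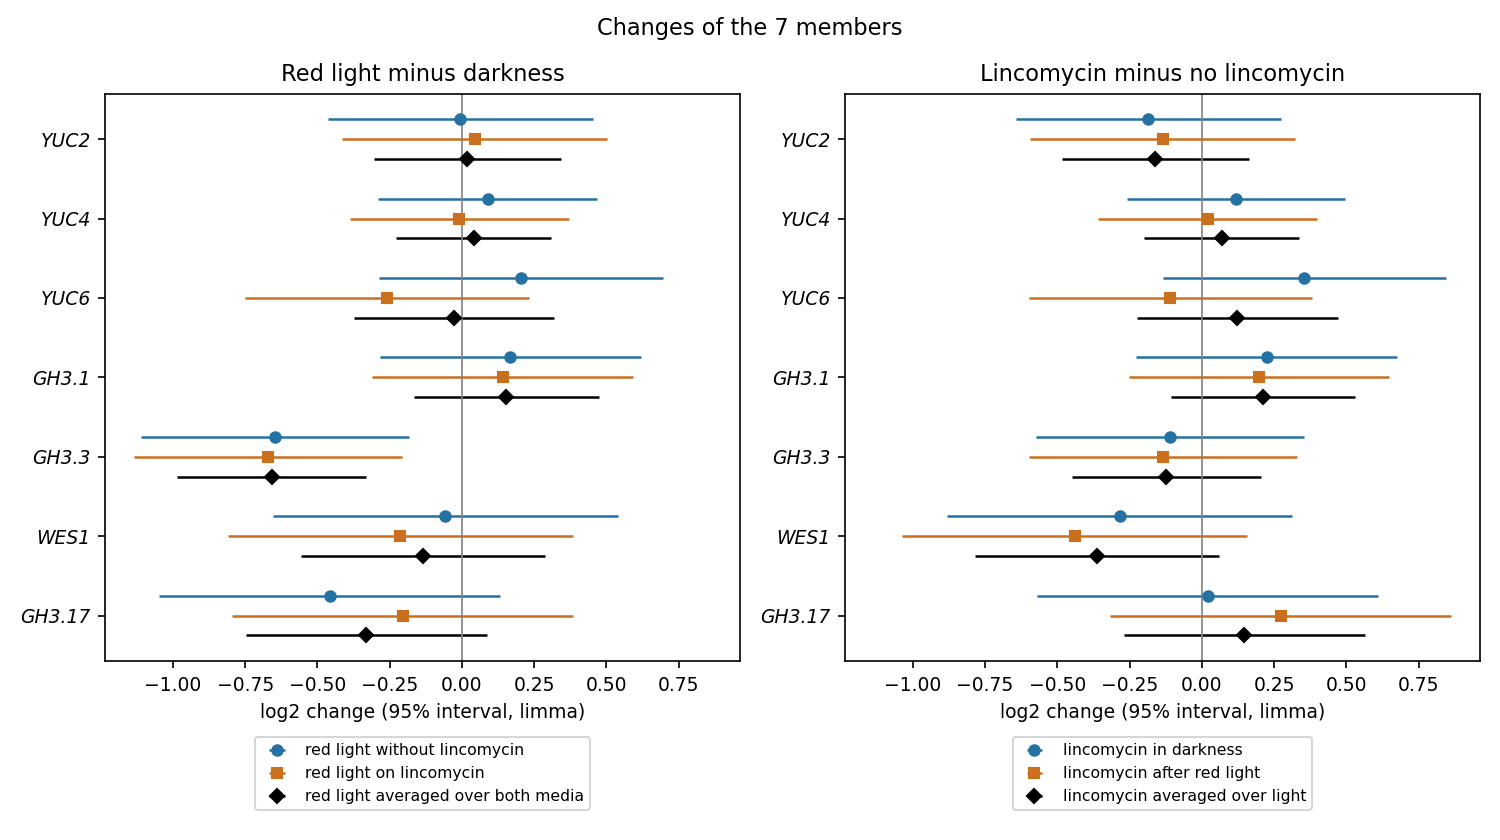
Fitted log2 change of each member with its 95% interval (limma, 8 arrays), for red light minus darkness on the left and lincomycin minus no lincomycin on the right. Circles and squares are the comparisons within one medium or light condition and diamonds their average. The 3 intervals of GH3.3 under red light are the ones that exclude 0.

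Part of the GH3.3 difference without lincomycin rested on single arrays. Replicate 1 of the dark group, with the high actin ratio, had the highest GH3.3 value of all. Replicate 1 of the red group had the lowest, almost level with replicate 1 of the red lincomycin group. Without both of these arrays the change without lincomycin was -0.29 ± 0.18 (adjusted p = 0.407 in limma), less than the -0.65 with them, and the average over both media was -0.48 (adjusted p = 0.0687). Without replicate 1 of the red group alone the change without lincomycin was -0.43. The change on lincomycin, -0.67, comes from 4 other arrays. The summed root hair markers moved with light in opposite ways on the 2 media, lower in the red lincomycin than in the dark lincomycin group and higher in the red than in the dark group, and GH3.3 was lower after light on both. The part of root content in the GH3.3 difference was not tested.

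The second question was what lincomycin did. In darkness, the members with the largest changes were YUC6 at 0.35 ± 0.21 and WES1 at -0.28 ± 0.25 (adjusted p = 0.433 and 0.631 in limma). Both arrays of YUC6 and of GH3.1 (0.22 ± 0.19) were higher in the dark lincomycin group than in the dark group, as for 23.1% of all probe sets. GH3.3 was at -0.11 and GH3.17 at 0.02. Called members numbered 0 of 7, against 0.98% of all probe sets, with a median of 0.02 in the members and -0.01 in all.

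After red light, WES1 was at -0.44 ± 0.25 on lincomycin, with both arrays of the red lincomycin group below both of the red group. The adjusted p was 0.702 in limma, and 20.5% of all probe sets were separated in this direction. GH3.17 was at 0.27 ± 0.25 and GH3.1 at 0.20 ± 0.19, and the other 4 lay between -0.14 and 0.02. Among the members 0 of 7 were called and among all probe sets 0.0264%. The members' median was -0.11 and that of all probe sets -0.01.

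Averaged over light, lincomycin gave WES1 -0.36 ± 0.18 (unadjusted p = 0.0827, adjusted p = 0.370 in limma), a ratio of 0.778 with a 95% interval from 0.581 to 1.04. GH3.1 was at 0.21 ± 0.14 and YUC2 at -0.16 ± 0.14, and the other members lay between -0.12 and 0.15. Again 0 of 7 members were called, against 0.897% of all probe sets, and 4 of 7 lay above 0. The interval of the ratio ran from 0.732 to 1.15 for GH3.3. It overlapped that of the ratio of red light to darkness, 0.634 (0.505 to 0.795), and the difference between the ratios was not tested.

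The WES1 difference depended on the dark arrays. Without replicates 1 of the dark and the red group, WES1 was called as lower on lincomycin in darkness, at -0.66 ± 0.17 (adjusted p = 0.0410 in limma), and on average over light, at -0.49 ± 0.12 (adjusted p = 0.0433). That fit, with 1 array in the red and the dark group, called 16.5% and 11.7% of all probe sets in these comparisons and assumed that the lone arrays varied like the other groups. Without replicate 1 of the dark group alone, WES1 in darkness was at -0.66 with an adjusted p of 0.137. Without the other dark replicate, at 863 for WES1, it was at 0.09 in darkness and -0.18 on average.

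**Figure D3:**
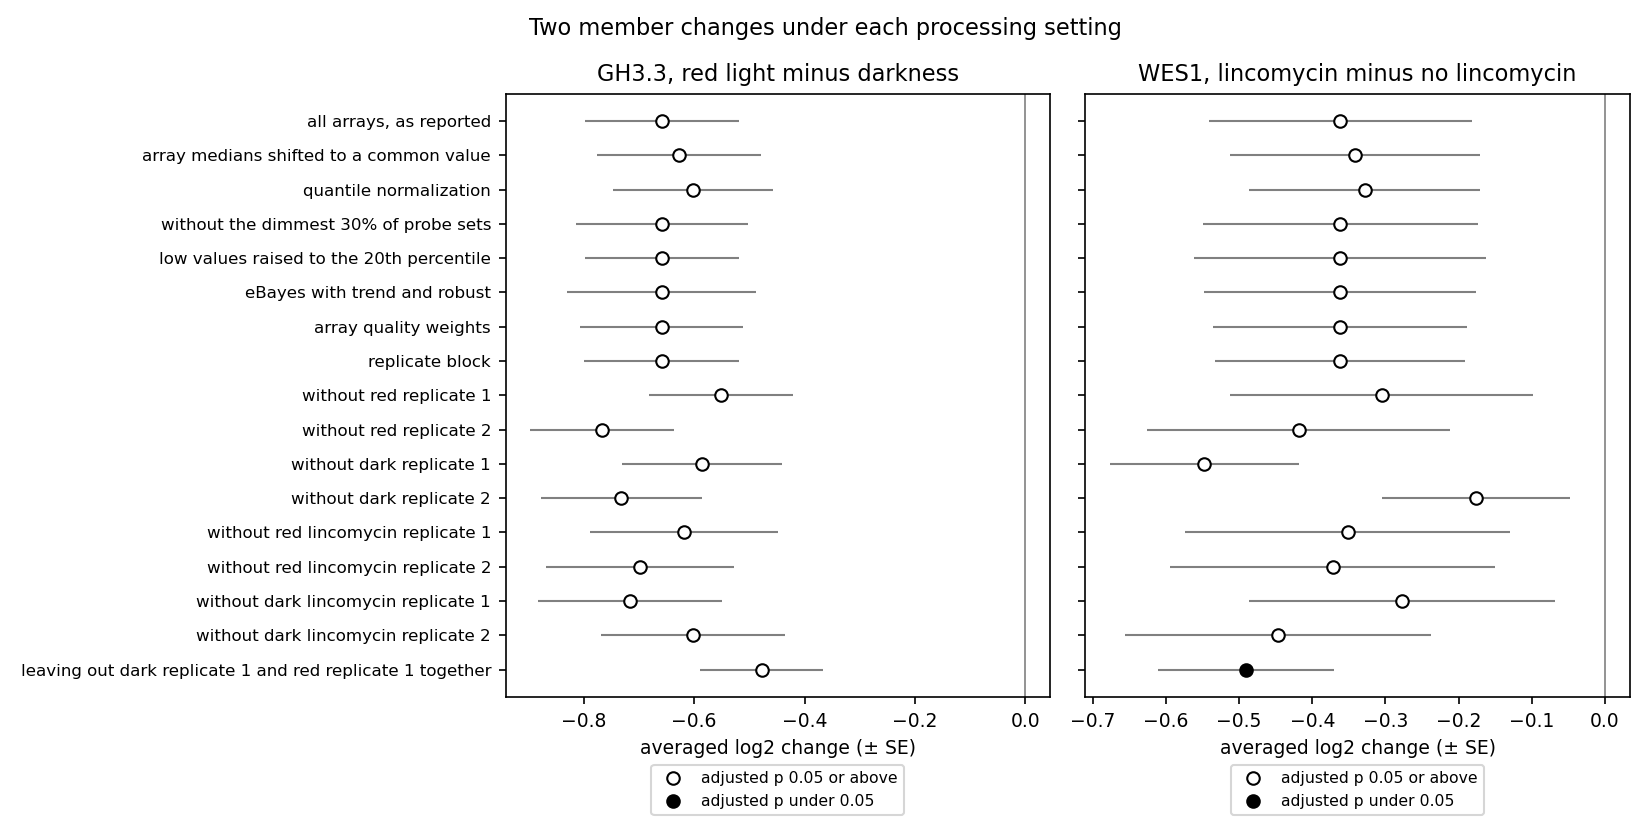
Averaged log2 change with its SE under each processing setting, for GH3.3 after red light on the left and WES1 on lincomycin on the right. Filled points have an adjusted p under 0.05. GH3.3 stays between -0.77 and -0.48 with no filled point, and WES1 between -0.55 and -0.18 with 1 filled point, the fit without replicates 1 of the dark and red groups.

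The third question was whether lincomycin altered the response to light. For GH3.3 the difference between the light responses on and off lincomycin was -0.02 ± 0.28, with a 95% interval from -0.68 to 0.63, which leaves room for an altered response as large as the light difference itself. YUC6 had the largest interaction among the members, -0.46 ± 0.29 (adjusted p = 0.657 in limma), from a light difference of -0.26 on lincomycin and 0.20 without it. The root hair markers had the same signs, with light differences of -0.44 on lincomycin and 1.14 without it for EXPA7 and of -0.36 and 0.63 for EXPA18. Taken from the same group means, the lincomycin differences of YUC6 and both markers were positive in darkness (0.35, 1.03 and 0.59) and negative after red light (-0.11, -0.54 and -0.40). They are thus no separate observation. How many of all probe sets had these signs was not counted. None of these differences was called, and the part of root content in the YUC6 values was not tested. GH3.17 was at 0.25 ± 0.35 and the other 4 members lay between -0.16 and 0.05. In limma 0 of 7 members and 0 of 22746 probe sets (0%) were called. An unadjusted p under 0.05 was reached by 2359 probe sets (10.4%) and none of the 7 members.

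Profiles over the 8 arrays were also compared between members, as the root mean square difference of log2 values after centring each gene on its own mean. Of the 21 pairs, YUC4 and GH3.1 were closest (0.15), and GH3.1 and GH3.3 were farthest apart (0.51). Among pairs of conjugation genes, GH3.3 and GH3.17 were closest, at 0.27. GH3.3 differed from WES1 by 0.42, the same as the median distance of GH3.3 to other named genes, and these distances were not tested.

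GH3.3 was the only member whose group means spanned over 0.5 in log2 (0.78), with WES1 just inside that limit at 0.498 and GH3.17 at 0.478. Of 13506 other probe sets with exactly 1 listed gene, AT3G57800 had the profile closest to GH3.3 over the 8 arrays, with a root mean square difference of 0.16, against a median of 0.42 over all of them. AT3G57800 had 135 and 149 on the red lincomycin arrays, 187 and 175 on the dark lincomycin arrays, 117 and 147 on the red arrays and 209 and 200 on the dark arrays. All its red-light arrays lay below all its dark arrays, as for 1.44% of all probe sets. Genes picked for closeness to GH3.3 on these same arrays tend to show this separation through the choice itself. The next closest were AT1G50040 (0.17) and AT5G25520 (0.18). AT5G25520 separated light from darkness as well, with 47.0 to 56.7 on the red-light arrays and 64.0 to 74.6 on the dark arrays. AT1G50040 did not, since replicate 2 of the red group (32.5) and replicate 2 of the dark group (32.6) were almost level.

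**Figure D4:**
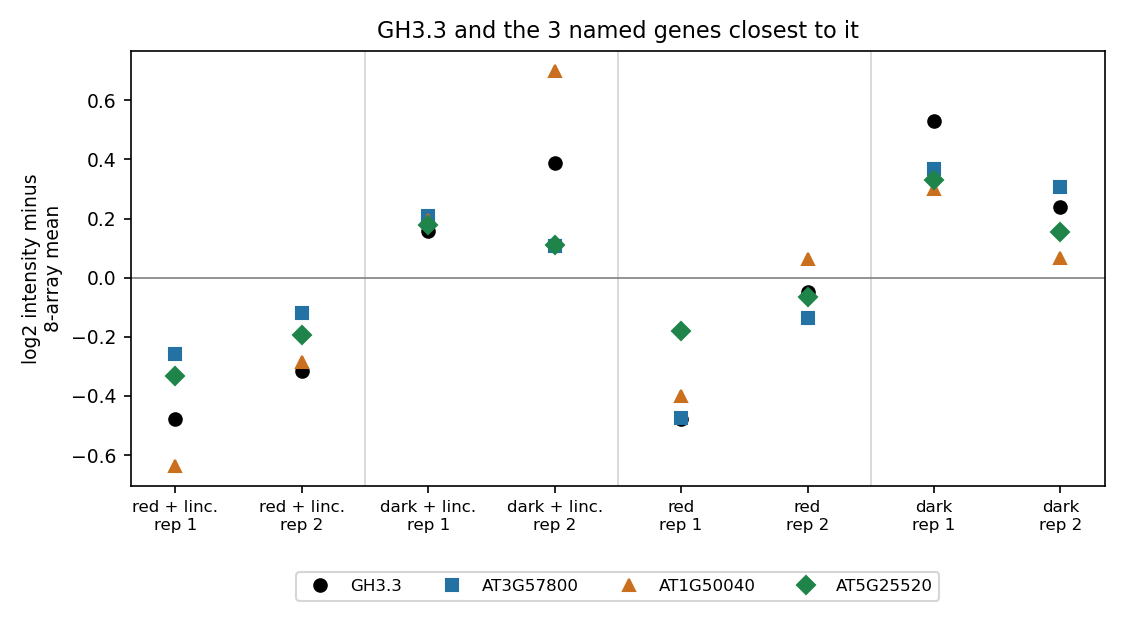
Log2 intensity minus the 8-array mean of GH3.3 and of the 3 named genes with the closest profile, on each array. GH3.3 lies below 0 on all 4 red-light arrays, from -0.48 to -0.05, and above 0 on all 4 dark arrays, from 0.16 to 0.53.

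The rest of the auxin pathway could be read for few genes. Of 95 auxin genes listed for synthesis, conjugation and oxidation, other GH3 enzymes, conjugate hydrolysis, transport, perception and response, 14 had a named probe set, the 7 members among them, and 81 were not analysed here. YUC11 lay between 9.18 and 12.6 on the 8 arrays and GH3.9 between 7.92 and 10.1, both dim, and their average changes after red light were 0.05 ± 0.13 and 0.04 ± 0.10. Of the 7 genes outside the members, 1 was called lower and 0 higher after red light on either medium. Over all probe sets, 0.189% were called in either direction without lincomycin and 0.0615% on it. For lincomycin 0 of these 7 genes were called in either direction, against 0.0264% to 0.98% of all probe sets. The 1 called was IAA29, a member of the Aux/IAA family of transcriptional repressors that auxin degrades.

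IAA29 had 51.7 and 49.7 on the red lincomycin arrays, 258 and 252 on the dark lincomycin arrays, 38.3 and 58.9 on the red arrays and 339 and 321 on the dark arrays. After red light it fell by 2.56 ± 0.15 in log2 on average over both media (adjusted p = 0.00206 in limma). HAT2, an auxin-inducible homeodomain transcription factor, was lower on all red-light arrays than on all dark arrays, as 1.44% of all probe sets were. Its average change, -0.55 ± 0.09, was not called (adjusted p = 0.112 in limma). These 2 were the measured ones of 14 response genes listed. Among the members that respond to auxin, GH3.3 was at -0.66 and GH3.1 at 0.15 after red light on average, neither of them called. Of the genes listed for conjugation and oxidation, the lowest p for lincomycin averaged over light was that of AT1G14120, at -0.50 ± 0.16 (adjusted p = 0.196). AT1G14120 had 69.9 and 91.7 on the red lincomycin arrays, 76.3 and 72.6 on the dark lincomycin arrays, 61.3 and 94.4 on the red arrays and 156 and 157 on the dark arrays. It was thus high in the dark group alone, with -1.07 ± 0.23 on lincomycin in darkness (adjusted p = 0.0769 in limma).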

How the data were processed

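RNA of whole seedlings had been extracted with a column kit, labelled with biotin and hybridised to 8 arrays. The deposited intensity values, 1 per probe set and array on a linear scale, had been made by the authors with RMA, per the submitters' processing notes. The software version and whether all arrays were run together are not given in the sources used here. Groups were read from the labels.

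The table lists 22810 probe sets, and the 64 controls among them entered no test. Of the rest, 13513 had exactly 1 listed gene, 503 several and 8730 none. No sequences of these genes were used here. Group means were fitted to log2 intensity of all 8 arrays with limma 3.58.1 (lmFit, eBayes) in R 4.3.3, which left 4 residual degrees of freedom beside 3.19 from the prior, without a block or an intensity filter. Tests were two-sided, adjusted by Benjamini-Hochberg over all 22746 probe sets within each of 7 comparisons, with calls at an adjusted p under 0.05. Intervals are 95% intervals of that fit. The procedure was tested on simulated data.

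All 7 members are named, with list genes that were called in any comparison or had the lowest p of their list for averaged light or lincomycin, and the 3 genes closest to any member whose group means spanned over 0.5. The markers EXPA7 and EXPA18, and HAT2, YUC11 and GH3.9 where this rule does not take them, are given in addition. Where a list gene had more than 1 probe set, the brightest was used. The members and lists were chosen with earlier results of these data known. Alternatives were array median scaling, quantile normalization, a filter that dropped the dimmest 30%, a floor at the 20th percentile, eBayes with trend and robust, array quality weights, the arrays of a comparison alone, a replicate block and left-out arrays. Figures were drawn with matplotlib 3.10.9 in Python 3.11.15.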

Additional observations from a re-analysis of the deposited data

Results flagged for a closer look

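EXPA7, the root hair expansin used as an organ marker, was higher on both arrays of the red group (60.1 and 47.2) than on those of the dark group (21.1 and 27.8), and lower on both arrays of the red lincomycin group (41.4 and 32.2) than on those of the dark lincomycin group (41.7 and 58.9). The interaction was -1.58 ± 0.35 (log2, SE), with an unadjusted p of 0.00249 and an adjusted p of 0.336 in limma, so the opposite directions did not pass the test of their difference. None of the 7 members had opposite, non-overlapping responses of this kind. How many of all probe sets had them was not counted, so this count cannot be read as a trait of the members.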

How the results depend on the processing

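The count of called members stayed at 0 under every alternative run but one, where the fit of a comparison's own arrays was run for the 4 simple comparisons and the others for all 7: leaving out replicates 1 of the dark and red groups together gave 1, WES1, for lincomycin in darkness and for lincomycin averaged over light. Leaving out each array in turn gave 0 to 0 called members in each comparison. GH3.3 after red light kept its sign in all alternatives, from -0.86 to -0.29 without lincomycin (17 alternatives), -0.78 to -0.56 on lincomycin (17) and -0.77 to -0.48 on average (16), with adjusted p from 0.0687 to 0.811 for the average. Of the 49 changes of members, 20 kept their sign in every alternative and 29 did not. YUC4 has no value where the dimmest 30% of probe sets were left out.

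Counts over all probe sets moved far more. With 1 array left out they ran from 0 (without replicate 1 of the red group) to 1219 (without replicate 2 of the dark group) for red light without lincomycin, against 43, and from 12 (12 to 14 without any 1 of the lincomycin arrays) to 222 (without replicate 2 of the dark group) for red light on average, against 68. For lincomycin in darkness they ran from 0 to 1950, against 223, and on average from 1 to 1106, against 204. Leaving out any 1 of the 4 lincomycin arrays gave 0 in darkness and 1 or 2 on average, and the highest counts came without dark replicate 2. For red light on lincomycin they ran from 0 to 28, against 14, for lincomycin after red light from 0 to 32, against 6, and for the interaction from 0 to 609, against 0. Other settings gave 0 to 949, 0 to 155, 0 to 3746, 0 to 90, 0 to 0, 34 to 765 and 73 to 2657 in the order of red light without and on lincomycin, lincomycin in darkness and after red light, the interaction, and the averages of red light and lincomycin. The cause was not tested.

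Replicate numbers did not pair the arrays in the same way across groups. The correlations of replicate deviations ran from -0.33, between dark and red lincomycin, to 0.44, between red and dark. Replicates of the red and dark groups thus deviated partly together, and whether they shared a batch was not tested. With the replicate number as a block, 0 members were called in each comparison, GH3.3 was at -0.66 ± 0.14 after red light on average (adjusted p = 0.282), and calls over all probe sets were 7, 1, 4, 1, 0, 44 and 119 in the same order.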
